A study of Homo sapiens with 4 samples.

Results

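The constitutive 26S proteasome was followed through the messenger RNAs of 34 genes in T24 cells with and without IGF2BP3. The genes were taken by symbol from the 58302 listed in the deposited files: 7 subunits of the alpha ring (PSMA1 to PSMA7) and 7 of the beta ring (PSMB1 to PSMB7) of the 20S core, 6 ATPases (PSMC1 to PSMC6) and 14 non-ATPase genes (PSMD1 to PSMD14) of the 19S regulator. The immunoproteasome subunits were left out of this set. T24 is an established human cell line from a carcinoma of the bladder urothelium. PolyA RNA was sequenced from 2 libraries labelled control and 2 labelled IGF2BP3 knockout, which the series text describes as a stable line made with CRISPR/Cas9. The labels name no treatment, no time and no control guide, and nothing in them tells whether a genotype is represented by more than 1 clone or culture. The p-values below hence cover no more than the spread between these libraries, which may be technical. All 34 symbols were found, each once, and 32 passed the filter of a mean of at least 1 FPKM (fragments per kilobase of transcript corrected for depth) over the 4 libraries. The 2 outside it, PSMA2 and PSMA6, had means of 0 and 0.367 FPKM, and the lowest mean inside it was 1.66 FPKM for PSMD5.

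The 26S proteasome degrades proteins tagged with ubiquitin. Its core is a barrel of stacked rings, in which the alpha rings form the gated entrance and the beta rings hold the proteolytic sites. The regulator binds the ends of the core, recognises ubiquitin, removes it, and unfolds and feeds in the substrate with a ring of ATPases. The subunits work in fixed proportions, and in many cell types their genes are induced together by the transcription factor NFE2L1 when proteasome activity falls. IGF2BP3 is an RNA-binding protein that recognises N6-methyladenosine in transcripts, and the comparison addresses how the transcriptome of T24 differs without it.

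The library totals behind the values were 2162179 and 1870884 reads for control 1 and 2, and 811823 and 1240207 for knockout 1 and 2, worked out from the steps between the values. Control 1 and knockout 1 listed 28.3% and 34.7% of the 11463 genes tested at 0, against 12.3% in control 2 and 13.9% in knockout 2. IGF2BP3 itself had 2.94 and 21.5 FPKM in control cells against 0 and 0.190 in the knockouts. The fitted difference was −3.89 ± 2.83 (SE), and it did not pass (adjusted p = 0.955 in limma). Of 6 epithelial markers 3 were detected, all keratins, with a sum of 439.6 and 574.6 FPKM in control 1 and 2 and 1499 and 1163 in knockout 1 and 2, and EPCAM, CDH1 and KRT19 were listed at 0 throughout. Of 8 urothelial markers 6 were listed at 0 in every library, and the sum of all 8 was 0.308 FPKM at most. All 5 leukocyte and 3 erythroid markers were at 0, and the fibroblast and endothelial lists summed to 0 to 14.9 and 0 to 2.72 FPKM. The part of such transcripts in the results was not tested.

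None of the 32 proteasome genes tested passed the adjusted threshold between the genotypes. At an adjusted p under 0.05 (limma with Benjamini-Hochberg adjustment over 11463 genes, 2 libraries against 2, two-sided), 0 members were called higher (background over all genes tested 0.0611%) and 0 lower (0.0262%), or 0 against 0.0872% in either direction. At an unadjusted p under 0.05, 2 members passed, PSMA4 and PSMD10, against a background of 3.91%. Limma-voom on recovered reads also called 0 members, with 1 at an unadjusted p under 0.05. Fitted differences are knockout minus control on the scale of log2(FPKM + 0.5), and they were above 0 for 17 members and below 0 for 15, with a median of 0.18 against −0.08 over all genes tested. The direction of that median turned with single libraries: leaving out control 1 gave −0.34 and leaving out knockout 2 gave −0.35, whereas leaving out control 2 gave 0.83 and leaving out knockout 1 gave 0.19. In bulk RNA, fewer cells with a transcript and less of it per cell cannot be told apart.

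Proteasome RNA was well represented in T24. The median subunit stood at 35.6 and 31.1 FPKM in the controls and at 35.6 and 35.7 FPKM in the knockouts, and the median rank of the 32 tested lay between the 80.9th and the 84.6th percentile of the genes tested in each library. The summed FPKM of the 34 genes was 2490.0 and 2420.0 in control cells against 2921 and 2718 in knockout cells. These sums rest heavily on PSMA7, the most abundant of the 34 in all 4 libraries. Its own mean was lower in knockout cells (772 FPKM) than in control cells (811 FPKM), with overlap. Values per gene are divided by the length of its longest annotated transcript, so subunits whose main transcript is shorter are understated.

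**Figure D1:**
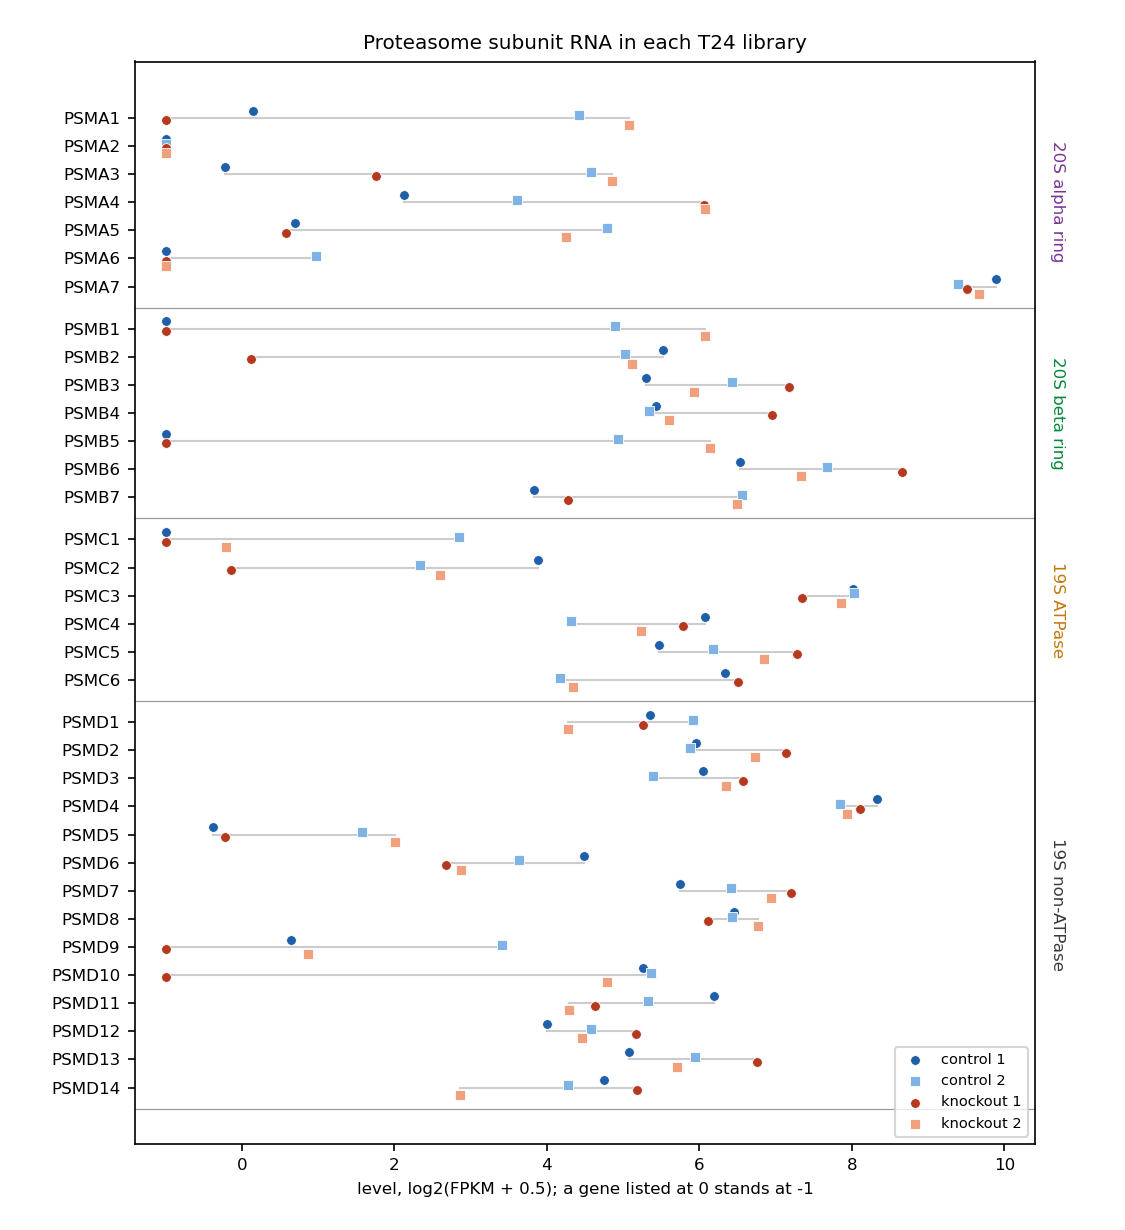
Level of each of the 34 subunit genes in the 4 libraries, as log2(FPKM + 0.5), with genes on the vertical axis by subcomplex; blue marks are controls, red and orange marks knockouts, circles replicate 1, squares replicate 2, and grey lines join the lowest and highest library. PSMA7, PSMC3, PSMD4 and PSMD8 keep within a narrow range, while PSMB1 and PSMB5 stand at 0 FPKM in replicate 1 of both genotypes and above 29 FPKM in replicate 2 of both.

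The alpha ring held the most abundant and the least abundant members. PSMA7 had 950.3 and 672 FPKM in control cells against 730 and 814 in knockout cells. Its highest value was 1.41 times its lowest, the genotypes overlapped, and the fitted difference was −0.05 ± 0.37 (SE). PSMA4, whose N-terminal tail takes part in closing the gate of the core, had 3.88 and 11.8 FPKM (37 and 97 reads) in control cells against 66.5 and 66.7 FPKM (238 and 365 reads) in the knockouts. Both knockouts stood well above both controls. The fitted difference of 3.20 ± 1.32 (SE, 95% interval 0.62 to 5.78) was the largest above 0 among the members. It did not pass over all genes (adjusted p = 0.955 in limma), and it lay between 2.45 and 3.94 with a library left out.

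PSMA1, PSMA3 and PSMA5 differed by replicate number and overlapped between the genotypes. PSMA5 had 1.12 FPKM in control 1 and 0.991 in knockout 1, but 27.2 in control 2 and 18.6 in knockout 2. PSMA3 had 0.362 and 2.89 FPKM in replicate 1 of control and knockout against 23.4 and 28.4 in replicate 2. PSMA1 had 0.606 FPKM in control 1 and was listed at 0 in knockout 1, where 0 reads allow up to 2.42 FPKM (3 reads, counting error only), against 21.0 in control 2 and 33.3 in knockout 2. For all 3 genes, both replicate 2 libraries exceeded both replicate 1 libraries. The median of the 7 alpha genes was accordingly 0.606 and 0.991 FPKM in control 1 and knockout 1, against 21.0 and 28.4 in control 2 and knockout 2.

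PSMA2 and PSMA6 were nearly unread. PSMA2 was listed at 0 in all 4 libraries, which allows 0.326 to 0.869 FPKM, and PSMA6 had 13 reads (1.47 FPKM) in control 2 and 0 reads elsewhere. Both share most of their coding exons with a second annotated gene on the same strand. In GENCODE 29, all 702 coding bases of PSMA2 (chromosome 7, 42916857 to 42932223, minus strand) also lie in exons of AC010132.3, and 89.7% of the 738 of PSMA6 (chromosome 14, 35278633 to 35317493, plus strand) in exons of AL121594.1. The same held for 91.0% of the coding bases of PSMA1 and 68.3% of PSMD9, and for no coding base of the other 30 members. Over all exon bases, the part shared with the second gene was 14.6% for PSMA2, 14.1% for PSMA6, 24.7% for PSMA1 and 14.9% for PSMD9. The 4 overlapping genes were listed at 0 in every library. How reads in shared exons were counted is not given in the sources used here, and the part of this sharing in the low values was not tested.

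Of the 7 beta subunits, 3 carry the active sites: PSMB5 the chymotrypsin-like, PSMB6 the caspase-like and PSMB7 the trypsin-like activity. PSMB6 had 92.4 and 204 FPKM in control cells against 402 and 161 in knockout cells. PSMB5 was listed at 0 in control 1 and in knockout 1, against 30.2 FPKM (73 reads) in control 2 and 69.8 FPKM (112 reads) in knockout 2. A count of 0 allows up to 1.07 FPKM in control 1 and 2.86 in knockout 1, so the gap between replicates exceeded counting error by far. PSMB7 had 13.7 and 18.9 FPKM in replicate 1 of control and knockout against 93.8 and 89.7 in replicate 2. The catalytic genes therefore did not keep a common ratio: knockout 1 had the highest value of PSMB6 and no read of PSMB5.

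Among the beta subunits without an active site, PSMB1 repeated the values of PSMB5, listed at 0 in control 1 and knockout 1, with 29.2 and 67.0 FPKM in control 2 and knockout 2. PSMB2 had 45.6 and 31.9 FPKM in control cells against 0.584 and 34.2 in the knockouts. Only knockout 1 was low, with 2 reads, and the fitted difference of −2.66 ± 1.53 (SE) shrank to −0.16 without that library. PSMB4 had 42.5 and 39.8 FPKM in control cells against 123 and 48.0 in the knockouts, without overlap. PSMB3 had 38.9 and 85.7 against 143 and 60.5, with overlap. In the beta ring 6 of 7 fitted differences were above 0 and 0 passed, with a median of 0.60 that turned to −1.17 without control 1 and to −0.92 without knockout 2.

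The ATPases unfold the substrate and, through their C-terminal tails, open the gate of the core. PSMC3 was the most abundant of the 6, with 257 and 261 FPKM in control cells against 162 and 232 in knockout cells. Both knockouts lay below both controls, by a fitted −0.42 ± 0.56 (SE). The difference was smaller than this SE, which follows genes of like level and not PSMC3 alone. PSMC5 had 43.6 and 71.7 FPKM in control cells against 154 and 115 in knockout cells, a fitted 1.24 ± 0.78 (SE, adjusted p = 0.955 in limma) that lay between 0.89 and 1.60 with a library left out. These groups did not overlap, and the difference was larger than the gap between replicates in either genotype (0.71 and 0.42 on the log2 scale).

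PSMC6 and PSMC4 ran opposite to PSMA1, PSMA3 and PSMA5, with higher values in replicate 1. PSMC6 had 80.3 FPKM in control 1 and 90.1 in knockout 1 against 17.5 in control 2 and 19.8 in knockout 2. PSMC4 had 66.7 and 54.7 FPKM in replicate 1 of control and knockout against 19.4 and 37.3 in replicate 2. PSMC2 had 14.2 and 4.55 FPKM in control cells against 0.403 and 5.54 in the knockouts, where knockout 1 rests on 1 read.

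PSMC1 was the least abundant ATPase, and its reads are hard to assign. It was listed at 0 in control 1 and knockout 1 and had 6.73 FPKM (56 reads) in control 2 and 0.363 FPKM (2 reads) in knockout 2. The annotation holds 28 pseudogenes named after members, and 13 of them are copies of PSMC1. PSMC1P1 aligned to all 1320 coding bases of PSMC1 with 1 difference, T885A (PSMC1's base first, position counted from the first coding base), and the longest identical run was 884 bases. The surroundings of that base are shown because a read within the coding sequence that misses it matches both loci. Bases outside the coding sequence were not compared. The base that differs is in capitals and changes the codon TAT of PSMC1 to the stop codon TAA in the copy. The PSMC1 stretch is spliced and spans chr14:90268387-90269430 (hg38, plus strand), and that of PSMC1P1 lies at chr3:68636559-68636619 (plus strand).
PSMC1: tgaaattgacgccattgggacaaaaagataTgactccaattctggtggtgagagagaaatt
PSMC1P1: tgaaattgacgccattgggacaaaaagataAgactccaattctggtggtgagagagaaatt
PSMC1P1 had 0.350 and 4.86 FPKM (1 and 12 reads) in control cells against 0 and 4.28 FPKM (0 and 7 reads) in the knockouts. In knockout 2 the copy thus had more reads than the gene. Exons of genes on the opposite strand also cover 75.8% of the exon bases of PSMC1, and the strand setting of the counts is not given in the sources used here. The split of reads between the gene, its copies and the opposite strand was not tested, so the PSMC1 values are uncertain.

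Copies of other members took few reads, but PSMA6P1 was read in libraries where PSMA6 was not. PSMA6P1, which matched 97.4% of the coding bases of PSMA6, had 9.99 and 2.16 FPKM in control cells against 0 and 4.35 in the knockouts, 16 reads at most. It had 16 reads in control 1 and 4 in knockout 2, where PSMA6 had 0. The split of reads between PSMA6 and its copies was not tested. PSMA6P2 had 5.45 FPKM (7 reads) in control 2 and was listed at 0 elsewhere. Of the 28 pseudogenes 24 had no read in any library, including all 3 of PSMA2 and all 3 of PSMD10.

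The non-ATPase genes of the regulator encode its scaffold, ubiquitin receptor, deubiquitinase, lid and assembly factors. PSMD4, a ubiquitin receptor, had 321 and 230 FPKM in control cells against 274 and 244 in knockout cells, and its highest value was 1.40 times its lowest. PSMD8, a lid subunit, had 87.2 and 85.2 FPKM against 68.6 and 108. Both overlapped between genotypes, with fitted differences of −0.07 ± 0.53 and −0.001 ± 0.778 (SE). They are 2 of the 4 members, with PSMA7 and PSMC3, whose highest value was under 2 times the lowest over the 4 libraries.

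The scaffold subunits, which bind ubiquitin receptors and shuttles, differed in direction. PSMD2 had 61.8 and 58.4 FPKM in control cells against 141 and 105 in knockout cells, a fitted 1.01 ± 0.78 (SE) that stayed between 0.81 and 1.22 with a library left out. PSMD1 had 40.3 and 59.6 FPKM in control cells against 37.8 and 18.9 in the knockouts, a fitted −0.86 ± 1.08 (SE). Neither pair of genotypes overlapped, and neither difference passed.

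The lid was split as well. PSMD7, the partner of the deubiquitinase, had 53.2 and 84.8 FPKM in control cells against 147 and 123 in knockout cells. PSMD3 had 65.8 and 41.6 FPKM against 94.7 and 80.7. For both genes the knockouts were higher without overlap, by a fitted 0.99 ± 0.75 and 0.73 ± 0.85 (SE). PSMD11 had 72.3 and 39.8 FPKM in control cells against 24.4 and 19.1 in the knockouts, and PSMD6 had 21.9 and 11.9 against 5.91 and 6.86. Both of these were lower in the knockouts without overlap, by a fitted −1.30 ± 1.10 and −1.28 ± 1.79 (SE). The other lid members overlapped: PSMD12 had 15.5 and 23.4 FPKM against 35.5 and 21.6, and PSMD13 had 33.2 and 60.7 against 108 and 51.7. PSMD14, the deubiquitinase that removes ubiquitin from the bound substrate, had 26.4 and 18.9 against 35.8 and 6.76.

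PSMD5, PSMD9 and PSMD10 encode chaperones that help to assemble the ATPase ring and leave the finished particle. PSMD10, also known as gankyrin, had 38.0 and 40.8 FPKM (127 and 118 reads) in control cells against 0 and 27.1 FPKM (0 and 52 reads) in the knockouts. Both knockouts lay below both controls, knockout 1 far below, and 0 reads there allow up to 2.39 FPKM. The fitted difference of −3.42 ± 1.69 (SE, 95% interval −6.74 to −0.11) was the lowest among the members and did not pass (adjusted p = 0.955 in limma). It was −0.53 without knockout 1 and −6.32 without knockout 2, so its size rests on that library. PSMD9 had 1.06 and 10.16 FPKM in control cells against 0 and 1.32 in the knockouts. PSMD5 had 0.269 and 2.48 against 0.358 and 3.51, with 16 reads at most.

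Differences between single replicates were as large as those between the means of the genotypes. Among the 32 members the median absolute difference between the genotypes was 0.73 on the log2(FPKM + 0.5) scale, against 0.86 between the controls and 1.14 between the knockouts. Over all genes tested these medians were 1.38, 1.60 and 1.89. The first compares means of 2 libraries and the others single libraries, so averaging alone would make the first smaller. At least 1 library listed 8 of the 34 members at 0, and 13 either varied over 10-fold or were at 0 in some libraries but not in others. Of the 34 members, 5 were at 0 in control 1 and 8 in knockout 1, against 1 in control 2 and 2 in knockout 2.

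Over the 32 members, subunit levels were most alike between libraries with the same number. Across the 32 members, Pearson's correlation of log2(FPKM + 0.5) was 0.80 between control 1 and knockout 1 and 0.86 between control 2 and knockout 2. It was 0.69 between the controls, 0.66 between the knockouts, and 0.58 and 0.68 between libraries that differed in both. Over all 11463 genes tested these correlations lay between 0.42 and 0.49. There the lowest was that between control 1 and knockout 1, and the highest that between control 2 and knockout 2. Genes are not independent replicates, the points share library and depth, and the correlations are given as a description. With the 26 members above 0 in all 4 libraries, the value stayed highest between control 2 and knockout 2 (0.90), but that between control 1 and knockout 1 (0.74) lay between those within genotypes (0.73 for the controls and 0.77 for the knockouts). Over the 5803 genes above 0 in all 4 libraries, it was likewise highest between control 2 and knockout 2 (0.72). Between control 1 and knockout 1 it was lowest (0.45). The labels do not say that a number marks a shared day or batch.

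**Figure D2:**
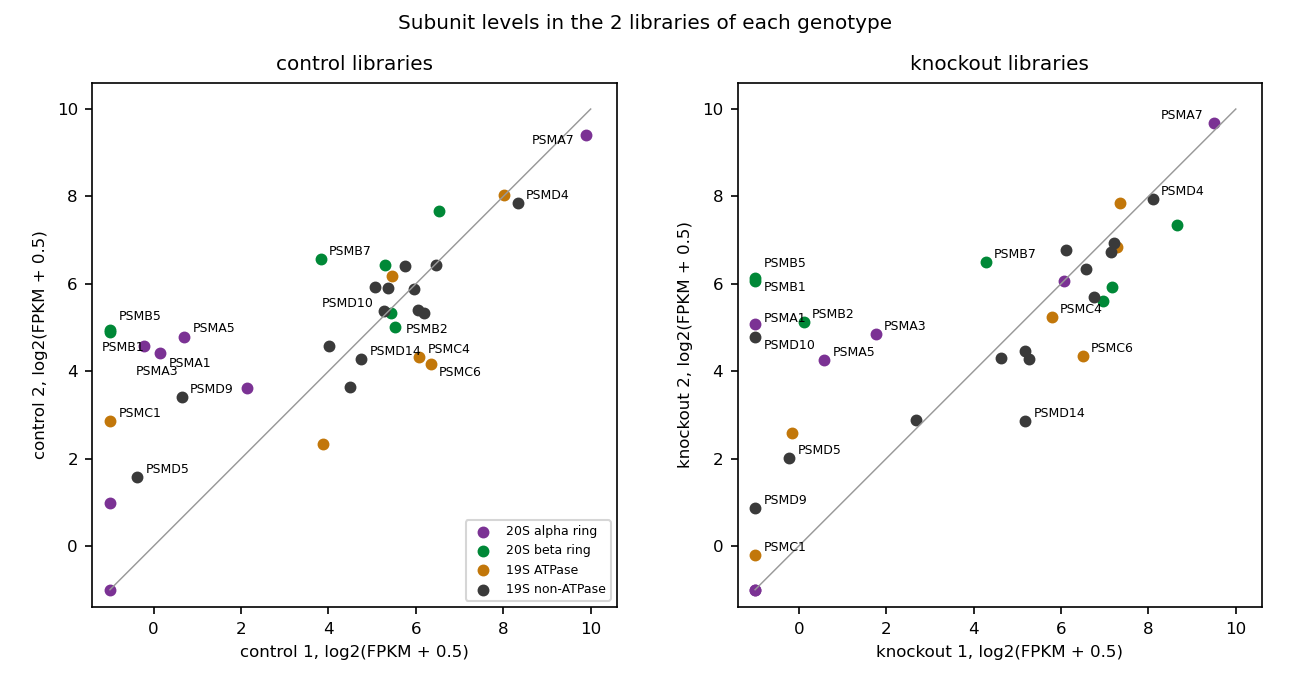
Level of each subunit gene in replicate 2 against replicate 1, as log2(FPKM + 0.5), for the controls (left) and the knockouts (right); points are genes coloured by subcomplex and the line marks equal levels. PSMA1, PSMA3, PSMA5, PSMB1, PSMB5 and PSMB7 lie above the line in both panels, and PSMC4, PSMC6 and PSMD14 below it in both.

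In 9 members both replicate 2 libraries stood above both replicate 1 libraries. Of these 9, 6 encode subunits of the 20S core, which accounts for 12 of the 32 members tested. The 9 are PSMA1, PSMA3, PSMA5, PSMB1, PSMB5, PSMB7, PSMC1, PSMD5 and PSMD9. The reverse held for PSMC4, PSMC6, PSMD4 and PSMD14. The background over all genes tested was 25.3% for the first order and 8.74% for the second, so 9 and 4 of the 32 members tested lay near it. The summed FPKM of the core was 1189 in control 1, 1272 in control 2, 1488 in knockout 1 and 1491 in knockout 2, and that of the regulator 1300.0, 1148, 1433 and 1227.

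**Figure D3:**
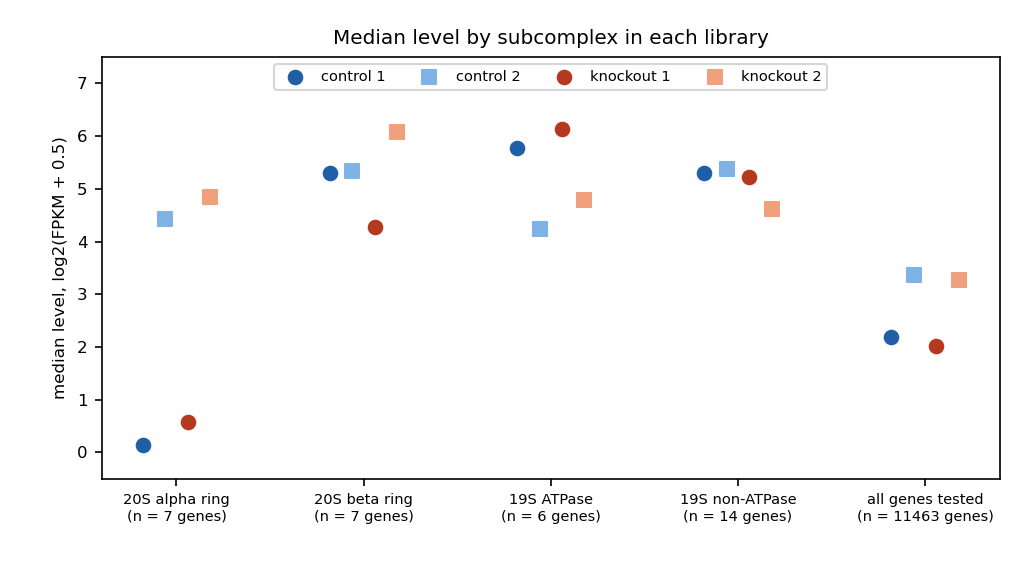
Median level of each subcomplex and of all genes tested in the 4 libraries, as log2(FPKM + 0.5); each mark is 1 library, circles replicate 1 and squares replicate 2. The alpha ring is low in control 1 and knockout 1 (median 0.606 and 0.991 FPKM), the ATPases are higher there (55.2 and 72.4 FPKM) than in control 2 and knockout 2 (18.4 and 28.5 FPKM), and the 14 non-ATPase genes stay between 24.4 and 41.2 FPKM.

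By genotype, 6 members had both knockouts above both controls, against a background of 12.1% of all genes tested, and 5 had both below, against 14.4%. The higher ones were PSMA4, PSMB4, PSMC5, PSMD2, PSMD3 and PSMD7, and the lower ones PSMC3, PSMD1, PSMD6, PSMD10 and PSMD11. In all 11 of 32 did not overlap, against a background of 26.5%. The regulator set accounts for 9 of these 11 and for 20 of the 32 members tested. Ties at 0 count as overlap, and 49.4% of all genes tested had a 0 in some library, against 18.8% of the members tested. For 7 of the 11, the fitted difference exceeded the gap between replicates in both genotypes, as it did for 1767 of the 3036 genes without overlap in the whole table. Subcomplex medians were −0.05 for the alpha ring (5 genes tested), 0.60 for the beta ring (7 genes), −0.12 for the ATPases (6 genes) and −0.04 for the non-ATPase genes (14 genes). The median SE of the members was 1.09 and the range 0.37 to 2.81, and the 95% interval covered 0 for 30 of the 32.

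**Figure D4:**
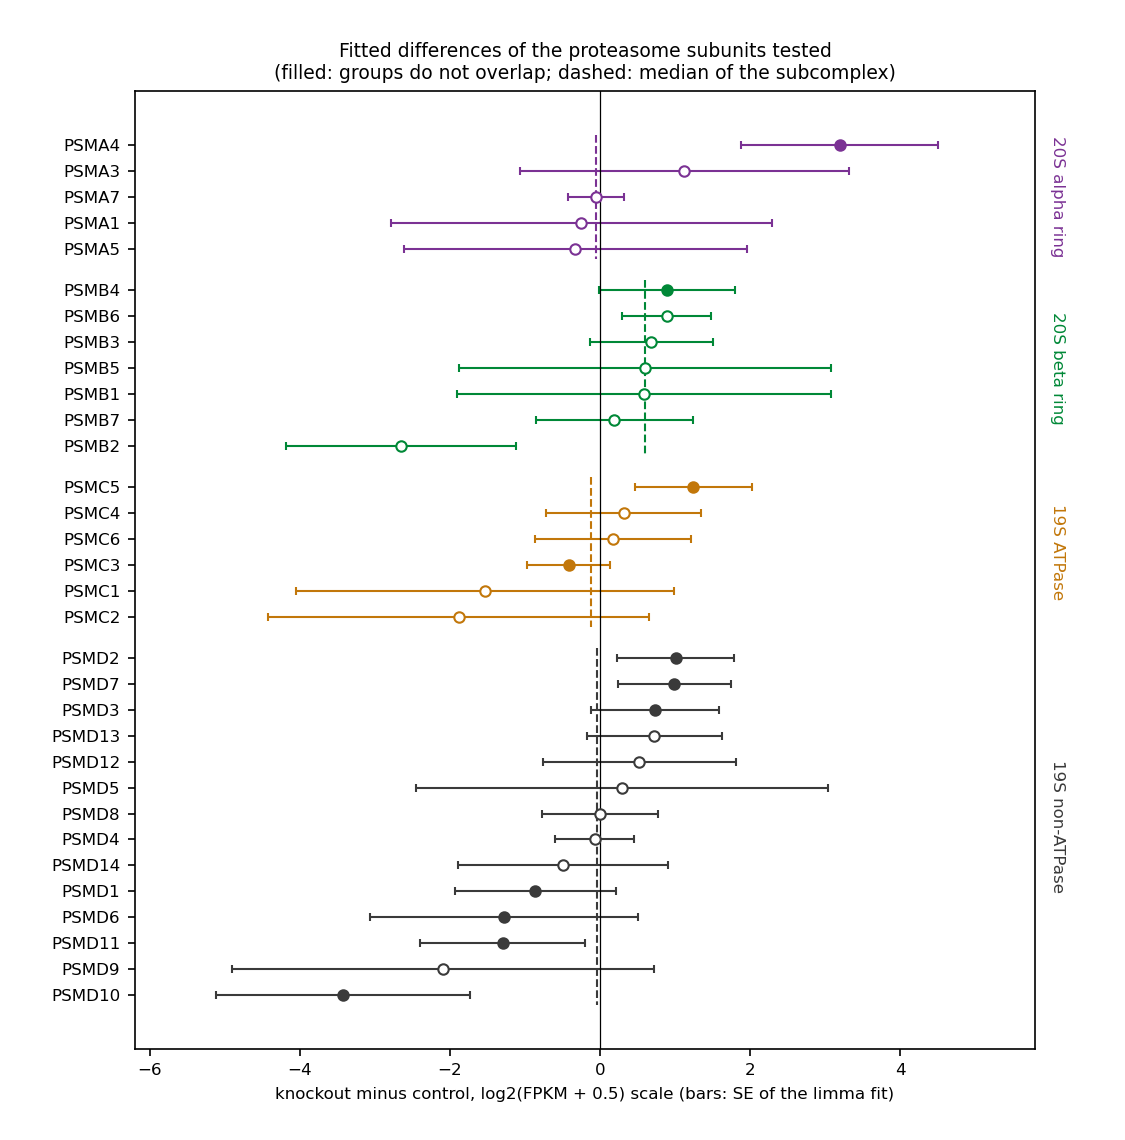
Fitted difference, knockout minus control on the log2(FPKM + 0.5) scale, of the 32 subunits tested; bars are the SE of the limma fit (2 libraries against 2), filled points are genes whose groups do not overlap and dashed lines the median of each subcomplex. PSMA4 (3.20) and PSMD10 (−3.42) lie farthest out, and the medians of the 4 subcomplexes lie between −0.12 and 0.60.

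The set of RefSeq (GRCh38.p14) start sites used here covered 29 of the 34 members. For each, the 250 bases before a start site were searched on both strands for 4 short motifs. The core of the antioxidant response element, TGACNNNGC, which NFE2L1 binds with a small MAF protein, was present in 5 of the 29 (17.2%), against 10.9% of 35116 promoter windows of the same length. The 5 were PSMB3, PSMD3, PSMD5, PSMD9 and PSMD12. CCAAT was found in 14 (48.3% against 32.0%), the ETS core CCGGAAG in 7 (24.1% against 8.52%) and TATAAA in 4 (13.8% against 10.7%). For these counts no window was trimmed at the GENCODE start. Each member had 1 window, at the RefSeq start nearest the GENCODE principal start. The 35116 windows took every start in the set, with more than 1 for some genes, so the shares compare unlike units. The RefSeq start lay up to 532 bases from the GENCODE principal start (PSMD2). Several windows, among them those of PSMC5, PSMD2, PSMD13 and PSMD14, lay wholly inside the GENCODE gene. For PSMC1, counted among those with TATAAA, bases after the RefSeq start were found in no GENCODE transcript of the gene. A match is a description of letters, not of binding. Of the 6 members higher without overlap 1 held TGACNNNGC, and of the 5 lower members 0 did.

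Promoter sequence is shown for PSMA4 and PSMD10, the members farthest apart between genotypes, and for PSMD3, the member without overlap that holds the element. The stretches end before the first of the RefSeq and GENCODE start sites, and capitals mark motif matches. They are chr15:78540155-78540404 (plus strand), chrX:108091619-108091792 (minus strand) and chr17:39980557-39980796 (plus strand).
PSMA4: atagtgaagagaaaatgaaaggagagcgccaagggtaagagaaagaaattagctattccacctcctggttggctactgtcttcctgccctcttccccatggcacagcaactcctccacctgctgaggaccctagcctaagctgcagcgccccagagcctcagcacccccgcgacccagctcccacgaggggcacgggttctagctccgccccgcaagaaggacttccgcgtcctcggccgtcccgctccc
PSMD10: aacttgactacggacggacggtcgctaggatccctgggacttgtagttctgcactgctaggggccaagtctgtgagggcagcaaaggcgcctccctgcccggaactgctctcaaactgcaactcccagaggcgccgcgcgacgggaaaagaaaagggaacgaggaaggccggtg
PSMD3: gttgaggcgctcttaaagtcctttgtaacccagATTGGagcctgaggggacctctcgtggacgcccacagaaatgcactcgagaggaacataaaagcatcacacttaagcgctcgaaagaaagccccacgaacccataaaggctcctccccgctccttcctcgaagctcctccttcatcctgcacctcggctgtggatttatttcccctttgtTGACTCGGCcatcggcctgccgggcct
The printed bases of PSMA4 and PSMD10 held none of the 4 motifs. The CCAAT match counted for PSMD10 lies outside its printed bases. PSMD3 held TGACTCGGC 37 to 29 bases before its RefSeq start and ATTGG, the reverse complement of CCAAT, 217 to 213 bases before it.

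Genes that act with the proteasome did not pass either. Of 44 in 7 lists, 38 were tested, and 12 were fitted above 0 and 26 below it, against 5525 above and 5938 below over all genes tested. In limma 0 of the 38 passed, and 0 at an unadjusted p under 0.05. Both knockouts stood above both controls for 4 of the 38, against a background of 12.1% of all genes tested. For 3 both stood below, against 14.4%. Both further 19S subunits were low in knockout 1: ADRM1, a ubiquitin receptor, had 187 and 215 FPKM in control cells against 52.3 and 189 in the knockouts. Among enzymes and shuttles bound to the particle, 4 of 10 were above 0. USP14, a deubiquitinase of the regulator, had 5.45 and 12.5 FPKM in control cells against 14.5 and 27.4 in the knockouts. UCHL5, a deubiquitinase held by ADRM1, went the other way, at 19.8 and 13.6 against 4.63 and 5.90.

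For the activators and the inhibitor of the core, 2 of 5 were above 0, and PSME2, a subunit of the interferon-induced activator, had 29.2 and 28.0 FPKM in control cells against 70.2 and 51.8 in the knockouts. Of the 5 inducible and tissue-specific core subunits, 3 were listed at 0 in all libraries. PSMB8, which replaces PSMB5 in the immunoproteasome, was the 1 tested, at 0 in both controls and at 4.56 and 32.2 FPKM in the knockouts. Assembly chaperones were above 0 for 1 of 4 tested, and none of the 4 separated the genotypes.

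The list for transcriptional control had 3 of 9 above 0. NFE2L1, the main inducer of subunit genes, had 37.6 and 71.2 FPKM in control cells against 57.5 and 92.9 in the knockouts, which overlapped, with a fitted 0.49 ± 0.88 (SE). SYVN1, a ubiquitin ligase of the endoplasmic reticulum, had 45.7 and 1.76 against 0 and 0.355. AKIRIN2, which carries proteasomes into the nucleus, showed the order of PSMB1 and PSMB5, at 0 in control 1 and knockout 1, 20.9 in control 2 and 30.6 in knockout 2. For ubiquitin and its activation 1 of 7 was above 0. VCP, the segregase that extracts tagged proteins, had 139 and 142 FPKM in control cells against 29.9 and 119, a fitted −1.23 ± 0.76 (SE), and UBB, which encodes polyubiquitin, had 612 and 639 against 709.9 and 475.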

How the data were processed

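PolyA RNA of 4 T24 libraries (2 control, 2 IGF2BP3 knockout) was analysed. The authors deposited 1 table per library with FPKM per Ensembl gene, its column headed as an input library, made with HTSeq as the file names give it. The build is hg38, per the submitters' processing notes. Aligner, annotation release, strand setting and any duplicate removal were not given in the sources used here. Names, positions and lengths came from GENCODE 29, which matched 58039 of 58302 genes. FPKM times longest transcript length was a whole multiple of 1 step for 96.4 to 96.5% of genes above 0 (tolerance 0.0001), which gave reads for all 34 members. Genes with a mean of at least 1 FPKM were tested with limma 3.58.1 in R 4.3.3 (eBayes with trend) on log2(FPKM + 0.5), two-sided; p-values were adjusted by Benjamini-Hochberg and read at 0.05. This scale understates changes of low genes. The prior degrees of freedom were infinite, so a gene's SE follows genes of like level. The fit was tested on simulated data. The spread of those data was set in advance and not taken from these libraries, so that test does not cover their noise. Floors of 3 reads cover counting error only.

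Every member is named. Other pathway genes were named where they passed or, up to 2 a list, had the largest fitted difference without overlap. ADRM1, NFE2L1, AKIRIN2 and UBB were named after their values were seen. Members and lists were chosen with earlier results of these data known. Alternatives covered pseudocount, filter, scaling, moderation, a replicate block, each library left out, limma-voom on recovered reads and the threshold. Tables were handled with pandas 2.3.3 and numpy 2.4.6 in Python 3.11.15, and plots drawn with matplotlib 3.10.9.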

Additional observations from a re-analysis of the deposited data

How the results depend on the processing

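The count of 0 proteasome genes was the same in all alternatives, including limma-voom, and with each library left out. The count of 10 genes over the whole table was 18 at an adjusted p of 0.1, 0 when eBayes was run with no trend (415 had an unadjusted p under 0.05) and 0 with each library left out. The median difference of the subunits lay between −0.35 and 0.83 with a library left out, that of the alpha ring between −1.27 and 2.67 and that of the beta ring between −1.17 and 1.46. Of 32 members, 13 changed sign with a library left out: PSMA1 (−3.29 to 2.79), PSMA3 (−1.27 to 3.52), PSMA5 (−2.38 to 1.72), PSMA7 (−0.30 to 0.20), PSMB1 (−2.95 to 4.13), PSMB5 (−2.97 to 4.17), PSMB7 (−1.17 to 1.56), PSMC4 (−0.56 to 1.20), PSMC6 (−0.91 to 1.25), PSMD4 (−0.31 to 0.17), PSMD5 (−0.82 to 1.41), PSMD8 (−0.33 to 0.33) and PSMD14 (−1.65 to 0.67). Without control 2, PSMC1 and PSMD9 no longer passed the filter. Of these 13, 4 also changed sign elsewhere: PSMA1 was 0.20 with a pseudocount of 5 and 0.014 in limma-voom, PSMA5 was 0.063 and PSMC6 −0.17 in limma-voom, and PSMD8 was 0.00066 with a pseudocount of 5, 4.4e-05 under median scaling and 0.077 in limma-voom. The other 19 kept their sign wherever they were tested. The replicate number as a block left 0 members called and changed no fold, and it moved the count of all genes from 10 to 14. Deviations of same-numbered libraries correlated at 0.65 across the 32 members and at −0.004 over all genes tested, and the labels give no pairing. Few reads limit single values: 8 of the 34 members had 3 reads or fewer in control 1, 1 in control 2, 13 in knockout 1 and 3 in knockout 2, an order that does not follow the library totals.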
